A study of Bos taurus with 20 samples.

Results

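The genes described here are 41 genes of DNA replication and S phase, the part of the cell cycle in which the genome is copied. They were chosen by symbol, as the rows of the count table that carry these symbols, and all 41 were found among 33063 named genes. The choice was made with earlier results of these data known, so shares of called genes describe the list and are not an unbiased excess. The samples were 20 clonal populations of bovine mesenchymal stem/stromal cells (MSC), 10 adipogenic (A) and 10 non-adipogenic (N), with 1 RNA sequencing library each. Every clone was grown from a single sorted MSC taken from visceral fat of a Holstein Friesian x Aberdeen Angus calf, in serum-containing medium with bFGF, and none had been differentiated when its RNA was taken. A clones formed lipid-filled adipocytes in a first and again in a later test of parts of the same clone, and N clones failed the first. The 10 A clones were those with the highest differentiation capacity in the study. Animals 17 and 20 gave 1 A and 1 N clone each, and animals 22 and 23 gave 4 of each. Clones of 1 animal share a donor. The tests measured the spread left among clones after the means of the 4 animals were taken out, not the spread between animals. The comparison asks whether replication genes differ between clones that did and did not form fat cells in these tests.

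Replication starts at origins, where the origin recognition complex (ORC) with CDC6 and CDT1 loads the MCM2-7 helicase in G1, a step called licensing. CDC45 and the GINS complex then switch the helicase on, primase and DNA polymerase alpha lay down primers, and polymerases epsilon and delta extend them on the sliding clamp PCNA. Most of these genes are targets of E2F transcription factors, which cyclin E with CDK2 helps to release, and their transcripts are a usual measure of how many cells of a culture are in cycle. In RNA from whole cultures, fewer cells in S phase and less of a transcript per cell cannot be told apart.

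Total counts on named genes lay between 14908802 and 43111345 in N clones and between 14615493 and 29185355 in A clones. The mesenchymal genes PDGFRA, THY1, ENG, CD44, ITGB1, COL1A1 and VIM summed to between 12279 and 33105 CPM in every clone, where CPM are counts scaled to the library size and its TMM factor. Summed adipocyte, endothelial and macrophage markers stayed at or under 41.3 CPM. A set of 5 smooth muscle and pericyte genes was abundant, with sums of 126 to 6132 CPM in N clones (median 1581) and 732 to 8671 CPM in A clones (median 2955). All 4 of its tested genes had positive log2 fold changes (median 1.65), 1 of them (MYH11) upregulated, and its part in the results on replication genes was not tested. A set of 5 mesothelial genes, KRT8 among them, stood apart. It summed to 8292 CPM in N clone 22-5 and 5616 CPM in N clone 22-9, against at most 116 CPM in the other N clones. Among A clones it summed to 915 CPM in 22-11, 847 CPM in 22-16 and 325 CPM in 23-62, and to at most 34.7 CPM in the others. These A clones were kept in the fits that leave out 22-5 and 22-9. N clones 22-5 and 22-9 were also high in replication genes, so results are given with and without them. Since their level of replication genes was part of this choice, a smaller difference without them follows in part from the choice.

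All 41 genes passed the filter on low counts, and 39 had a lower mean in A than in N clones after adjustment for the animal. Of these, 13 were downregulated in A clones (adjusted p under 0.05 in a quasi-likelihood F test of edgeR, Benjamini-Hochberg over 12900 genes), a share of 31.7%, beside 10.3% of all genes tested. CCNE1 (cyclin E1) was the 1 gene upregulated in A clones, beside 10.3% of all genes in that direction, and 27 genes were not called. The median log2 fold change of A against N clones was -0.59 over the 41 genes and -0.01 over all genes tested. At least a 2-fold reduction was seen in 5 of the downregulated genes, MCM5, ORC1, GINS2, POLE and UHRF1, beside 1.81% of all genes. In each of these 41 genes the A and N clones overlapped, so that 0 had every A clone below every N clone, beside 0.093% of all genes. Within single animals, 26 of the 41 genes had a lower mean in A clones in all 4, the 13 downregulated genes among them. The 13 were called from these same clones, so their direction within animals is no separate support. The 41 genes vary together, animals 17 and 20 compare 1 clone with 1, and the share of all genes lower in all 4 animals was not counted. In animal 22 the lower means of the 13 rested largely on N clones 22-5 and 22-9. Without them 4 of the 13 (MCM6, LIG1, PRIM2 and POLA1) were lower in A clones and 9 were higher.

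**Figure D1:**
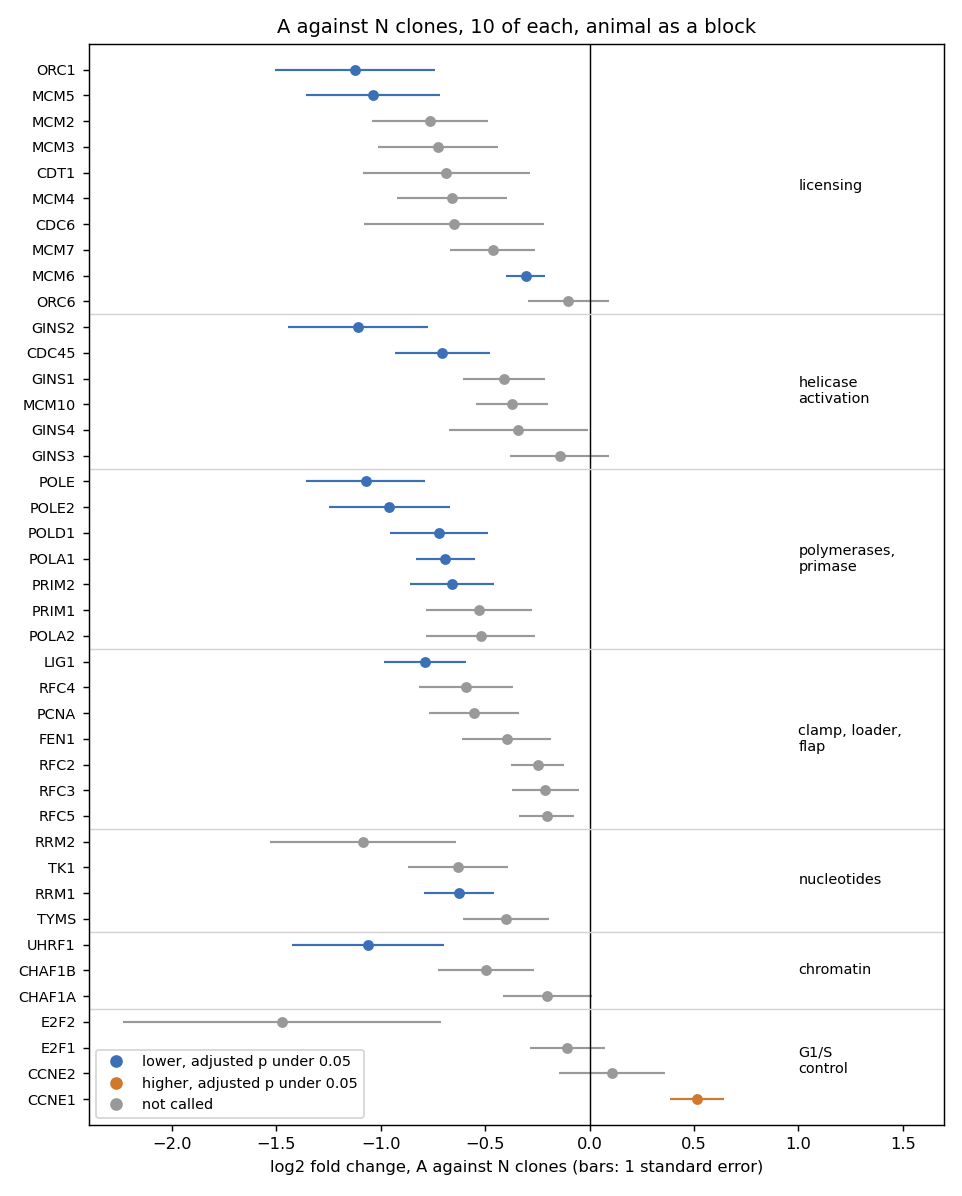
Log2 fold change of A against N clones (x axis) for each of the 41 replication genes (y axis, grouped by role), with bars of 1 standard error. The 13 genes in blue were lower and CCNE1, in orange, was higher at an adjusted p under 0.05, and the grey genes were not called.

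Of the 10 licensing genes, 3 were downregulated in A clones, beside 10.3% of all genes tested, and the log2 fold changes of the group ran from -1.12 to -0.10. The same 10.3% stands beside the counts of the other role groups below. The groups are small and were not compared by a test. MCM5, a subunit of the helicase ring, measured 8.30 to 59.6 CPM in N clones (median 22.7) and 3.63 to 27.5 CPM in A clones (median 14.7). It was reduced 2.05-fold in A clones (log2 fold change -1.04, SE 0.32, adjusted p = 0.0312), and 3 N clones lay above every A clone. MCM6, another subunit of the ring, changed less and varied less. Its level was 49.97 to 73.1 CPM (median 58.1) in N clones and 35.1 to 57.9 CPM (median 49.2) in A clones, with 5 A clones below every N clone (log2 fold change -0.31, SE 0.093, adjusted p = 0.0286). ORC1, the largest subunit of the origin recognition complex, was the gene of this group with the largest change. It measured 1.04 to 6.21 CPM in N clones (median 2.02) and 0.196 to 3.31 CPM in A clones (median 1.29), a log2 fold change of -1.12 (SE 0.39, adjusted p = 0.0473) that rested on as few as 4 counts in a clone. The other ring subunits MCM2 (-0.77), MCM3 (-0.73), MCM4 (-0.66) and MCM7 (-0.46) and the loading factors CDT1 (-0.69) and CDC6 (-0.65) had negative log2 fold changes that did not pass the test. ORC6, a small ORC subunit, was close to equal at -0.10.

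Of the 6 genes that activate the helicase, GINS2 and CDC45 were downregulated in A clones. GINS2, a subunit of the 4-protein GINS complex, had 1.93 to 13.8 CPM in N clones (median 6.32) and 1.03 to 6.74 CPM in A clones (median 3.41), and its log2 fold change was -1.11 (SE 0.34, adjusted p = 0.0286). CDC45, which joins GINS on the MCM ring, had 3.69 to 13.4 CPM in N clones (median 8.40) and 3.63 to 8.82 CPM in A clones (median 5.35). Its log2 fold change was -0.71 (SE 0.23, adjusted p = 0.0362), with 5 N clones above every A clone. The other GINS subunits did not follow GINS2 past the threshold, with log2 fold changes of -0.41 for GINS1, -0.14 for GINS3 and -0.34 for GINS4. MCM10, which assists the start of unwinding, stood at -0.37.

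The polymerases and primase were the group with the largest share of downregulated genes, 5 of 7, beside 10.3% of all genes tested. That share depended on the fit. With limma-voom, another test with the same block, PRIM2 and POLA1 were downregulated, and without N clones 22-5 and 22-9 POLA1 alone was. The 2 others of the 7, PRIM1 (-0.53) and POLA2 (-0.52), had negative log2 fold changes without passing the test. POLA1, the catalytic subunit of polymerase alpha, had the smallest adjusted p of the 41 genes. It was 29.4 to 51.9 CPM in N clones (median 41.1) and 15.1 to 38.4 CPM in A clones (median 23.4). The means (± SD over 10 clones) were 40.6 ± 6.01 for N and 25.4 ± 7.33 CPM for A, a 1.61-fold reduction (log2 fold change -0.69, SE 0.14, edgeR adjusted p = 0.00469). With 7 A clones below every N clone and 7 N clones above every A clone, the overlap was confined to 3 clones of each kind. PRIM2, the large primase subunit, had 8 A clones below every N clone, the most of any of these genes. Its range was 6.24 to 14.1 CPM in N clones (median 7.38) and 3.18 to 8.95 CPM in A clones (median 4.97), and its log2 fold change was -0.66 (SE 0.20, adjusted p = 0.0304).

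The leading-strand polymerase epsilon was reduced in the 2 of its subunits that are among the 41 genes. Its subunits POLE3 (log2 fold change -0.17, edgeR adjusted p = 0.397) and POLE4 (-0.0016, adjusted p = 0.991), read from the list of further replication genes, were not called. POLE, its catalytic subunit, had 4.71 to 26.3 CPM in N clones (median 9.16) and 2.35 to 10.6 CPM in A clones (median 5.66), a 2.10-fold reduction (log2 fold change -1.07, SE 0.28, adjusted p = 0.0154). POLE2 had 1.12 to 5.01 CPM in N clones (median 2.196) and 0.490 to 2.24 CPM in A clones (median 1.54), with a log2 fold change of -0.96 (SE 0.29, adjusted p = 0.0285). In both genes 2 A clones, 17-57 and 20-106, lay below every N clone, while the remaining A clones lay inside the N range. For POLE2 these 2 clones had 8 and 10 counts. POLD1, the catalytic subunit of polymerase delta, had 8.99 to 39.0 CPM in N clones (median 15.9) and 6.37 to 21.1 CPM in A clones (median 11.8), with a log2 fold change of -0.72 (SE 0.23, adjusted p = 0.0382).

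**Figure D2:**
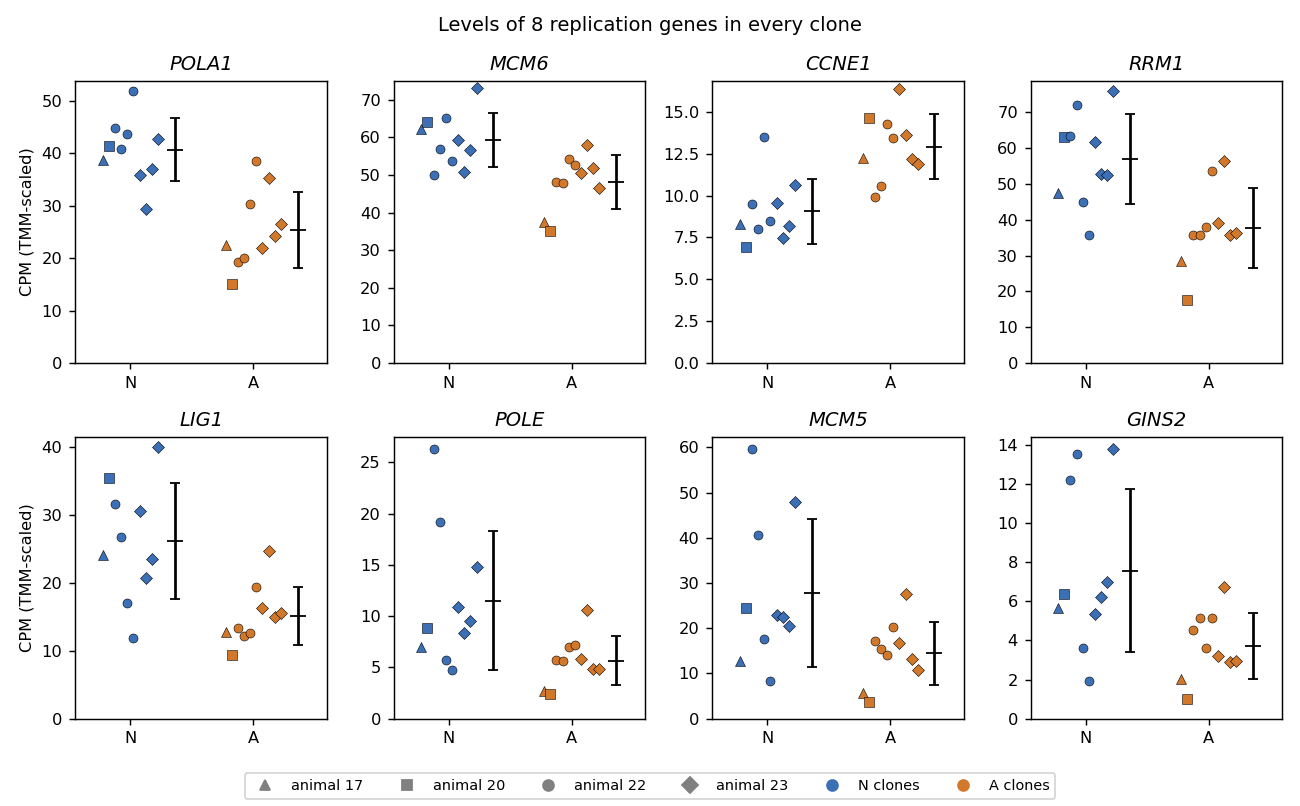
TMM-scaled CPM (y axis, from 0) of 8 replication genes in each N and A clone, with the animal given by the symbol and the mean ± SD of the 10 clones of a group beside the points. POLA1 shows 7 A clones below every N clone, CCNE1 shows 4 A clones above every N clone, and POLE, MCM5 and GINS2 show N clones that spread more widely than A clones.

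Among the 7 genes of the clamp, its loader and the joining of lagging-strand pieces, LIG1 was the 1 gene called. LIG1, the ligase that seals Okazaki fragments, had 11.8 to 40.0 CPM in N clones (median 25.4) and 9.41 to 24.8 CPM in A clones (median 14.2). This was a 1.73-fold reduction (log2 fold change -0.79, SE 0.20, adjusted p = 0.0117), and 5 N clones lay above every A clone. PCNA, the clamp itself, averaged 35.2 ± 12.5 CPM over N and 24.3 ± 7.39 CPM over A clones (SD of 10 clones) and missed the threshold (log2 fold change -0.55, SE 0.22, edgeR adjusted p = 0.0768). FEN1, the flap nuclease, stood at -0.40. The clamp loader subunits among these 7 genes ran from -0.59 for RFC4 through -0.25 for RFC2 and -0.21 for both RFC3 and RFC5. The loader subunit RFC1, on the list of further replication genes, was downregulated (log2 fold change -0.20, edgeR adjusted p = 0.0439).

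Of the 4 genes of nucleotide supply, RRM1 was downregulated. RRM1, the large subunit of ribonucleotide reductase, had 35.8 to 75.9 CPM in N clones (median 57.2) and 17.6 to 56.6 CPM in A clones (median 36.1), a 1.54-fold reduction (log2 fold change -0.63, SE 0.17, adjusted p = 0.0157). Its partner RRM2, the subunit made in S phase, had the larger change and the larger error. RRM2 ran from 11.7 to 98.9 CPM in N clones and from 1.13 to 60.2 CPM in A clones, and its log2 fold change of -1.08 (SE 0.45) did not pass (adjusted p = 0.0909). TK1 (-0.63) and TYMS (-0.40), which make thymidine nucleotides, were not called either. The 3 genes that rebuild chromatin behind the fork included 1 downregulated gene, UHRF1, which brings the maintenance methyltransferase to newly copied DNA. UHRF1 had 5.12 to 54.4 CPM in N clones (median 21.8) and 1.57 to 26.5 CPM in A clones (median 13.1), with a log2 fold change of -1.06 (SE 0.37, adjusted p = 0.0488). The chromatin assembly factor subunits CHAF1A (-0.20) and CHAF1B (-0.49) were not called.

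Of the 4 genes of G1/S control, 1 was upregulated and 3 were not called. CCNE1, whose protein drives CDK2 at the entry to S phase, was upregulated in A clones, at 9.94 to 16.4 CPM (median 12.9) against 6.94 to 13.5 CPM (median 8.39) in N clones. The means were 12.9 ± 1.94 and 9.05 ± 1.91 CPM (SD, n = 10 each), a log2 fold change of 0.51 (SE 0.13, edgeR adjusted p = 0.0114). It was higher in A clones in each animal, by 0.56, 1.06, 0.30 and 0.59 on the log2 scale in animals 17, 20, 22 and 23, with 4 A clones above the whole N range, and by 0.15 in animal 22 without N clones 22-5 and 22-9. CCNE2, the second cyclin E gene, had a log2 fold change of 0.11 (SE 0.25), and E2F1, an activating E2F factor, of -0.11 (SE 0.18), neither past the test. E2F2 had the most negative log2 fold change of all 41 genes, -1.47, with the largest error (SE 0.76, adjusted p = 0.172). The N and A medians were 0.773 and 0.758 CPM, so that the middle clones of both groups were close. N clones 22-5 and 22-9 had 15.1 and 25.5 CPM against at most 2.78 CPM in the other N clones. A clone 20-106 had 0 counts of E2F2, which allows up to 0.147 CPM. Without the 2 N clones the log2 fold change of E2F2 was -0.01 (SE 0.48).

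The count of 13 downregulated genes depended on which clones entered the test. Without N clones 22-5 and 22-9, POLA1 (log2 fold change -0.71, SE 0.16, adjusted p = 0.0114) and MCM6 (-0.35, SE 0.098, adjusted p = 0.0286) remained downregulated and CCNE1 remained upregulated (0.50, SE 0.14, adjusted p = 0.0295), while the other 11 genes no longer passed. LIG1 (-0.65, adjusted p = 0.0532) and RRM1 (-0.54, adjusted p = 0.0612) were the nearest to it. The 2 genes still lower made up 4.88% of the 41, beside 5.91% of all genes tested without these clones, and the median log2 fold change was -0.40 with 39 genes still negative. The part of mesothelial-type cells in the difference was not tested.

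Single clones also moved the count. With 1 N clone left out it was 6 without 17-23, 5 without 20-15, 7 without 22-5, 5 without 22-9 and 4 without 23-74, and it rose to 23 without 22-18. With 1 A clone left out it was 6 without 17-57, 5 without 20-106, 8 without each of 22-11, 22-16 and 22-27, and 21 without 23-62. The share of all genes downregulated lay between 7.21% and 11.9% in these fits. The share of the 41 was close to it without 23-74 (9.76% beside 8.598%), 20-15 (12.2% beside 9.35%) and 20-106 (12.2% beside 9.30%), and furthest from it without 22-18 (56.1% beside 11.9%). For animals 17 and 20, leaving out 1 clone leaves the other with no partner. Over these 20 fits the median log2 fold change of the 41 genes stayed between -0.68 and -0.48, and between 38 and 40 genes were negative. POLA1, POLE, RRM1 and LIG1 were downregulated, and CCNE1 upregulated, in each of the 20. With DESeq2's Wald test and the same block, 19 genes were downregulated and CCNE1 was upregulated, and with limma-voom 5 were downregulated and CCNE1 was upregulated. These are 46.3% of the 41 genes beside 13.1% of all genes with DESeq2, and 12.2% beside 9.89% with limma-voom, a share near that of all genes.

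Levels of these genes varied together from clone to clone. A relative replication level was computed for each clone as the mean over the 41 genes of log2 CPM minus the gene's mean over the 20 clones. It was 0.25 ± 0.52 in N clones and -0.25 ± 0.56 in A clones (SD, n = 10 each), and the 2 groups overlapped. N clones ran from -0.66 in 22-18 to 0.96 in 23-74, with 22-5 at 0.94 and 22-9 at 0.78. A clones ran from -1.38 in 20-106, with 17-57 next to it, to 0.51 in 23-62, which stood above 7 of the 10 N clones. A small number of clones held most of the extreme values. Clone 22-18 was the lowest N clone for 31 of the 41 genes and 20-106 the lowest A clone for 30, while 23-62 was the highest A clone for 29 and the highest N value fell in 23-74 for 17 genes and in 22-5 for 16. N clone 22-18 also had the largest library, with 43111345 counts, and the part of depth in its level was not tested.

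**Figure D3:**
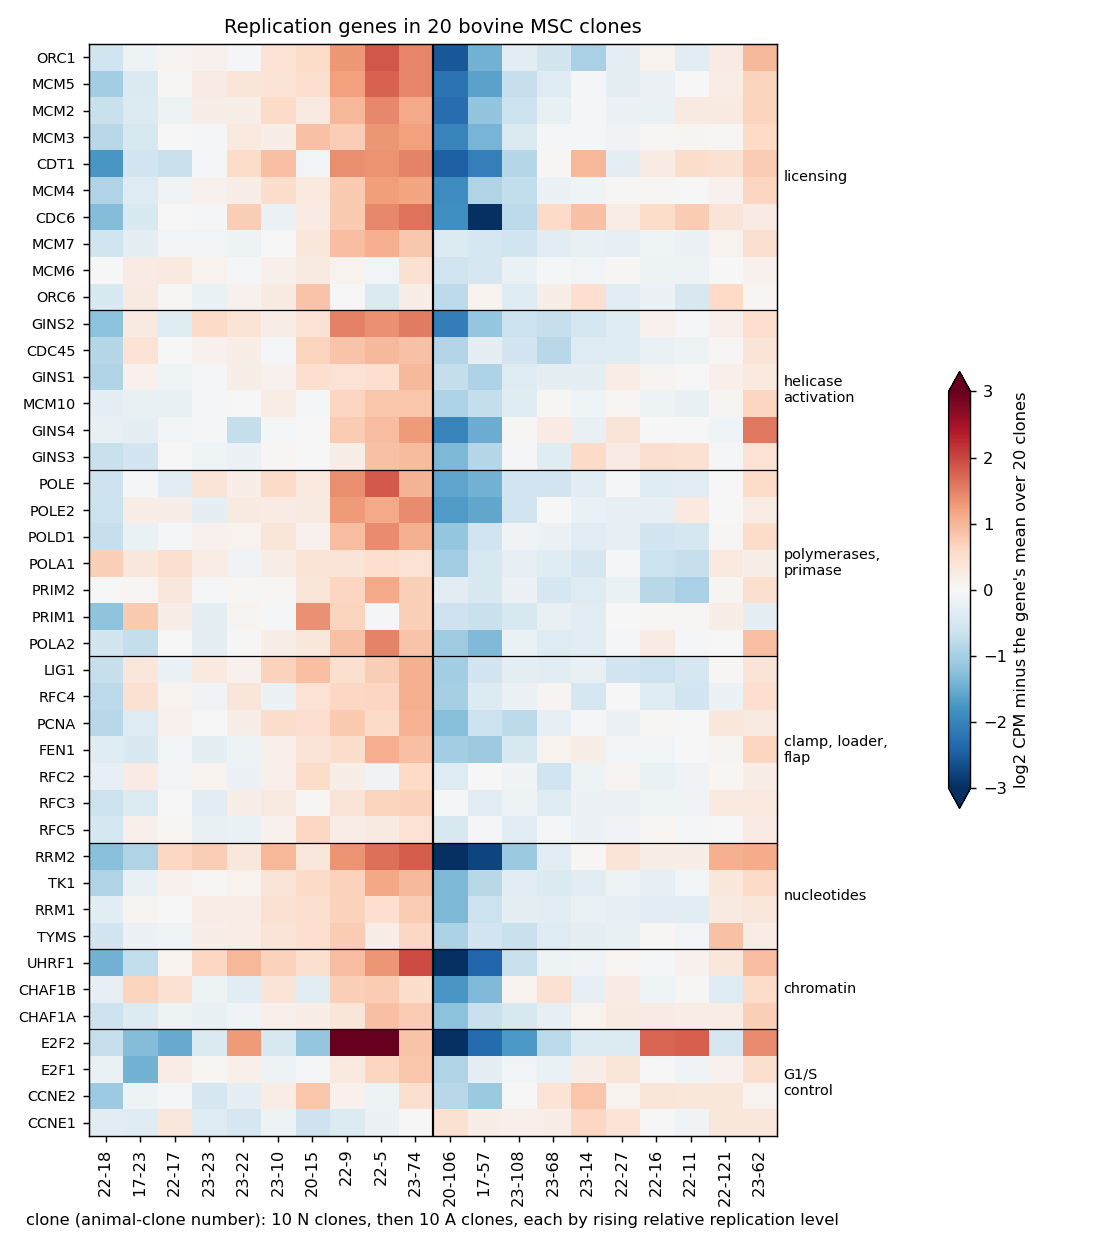
Log2 CPM minus the gene's mean over 20 clones (colour) for the 41 replication genes (rows, by role) in the 10 N clones and then the 10 A clones (columns, each by rising relative replication level). Most rows change colour together along the columns from 22-18 to 23-74 and from 20-106 to 23-62. The rows of CCNE1 and ORC6 follow least, with r = -0.333 and 0.347 with the other genes over the 20 clones.

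With all clones, the mean of A clones was below that of N clones in each animal, by different amounts. The relative replication level of A minus N was -0.82 and -1.71 in animals 17 and 20, with 1 clone of each kind, and -0.25 and -0.38 in animals 22 and 23. The number of the 41 genes with a lower mean in A clones was 38, 40, 30 and 37 in the same order. In animal 22 the N clones spread from the lowest N level to the second highest, around 4 A clones that lay between -0.05 and 0.17. Without N clones 22-5 and 22-9 the direction in animal 22 turned: the A clones averaged 0.01 and the other 2 N clones -0.34, a difference of 0.35, and 36 of the 41 genes had a higher mean in A clones. The 2 clones left out were the highest N clones of animal 22 in this level, so leaving them out had to lower its N mean. The turn follows in part from that choice. Tested alone, animal 22 and animal 23 each gave 0 called genes with 4 clones against 4 (edgeR, with 2 and 9 genes at an unadjusted p under 0.05), where 0.331% and 2.08% of all genes were downregulated. Leaving out animals 17, 20, 22 and 23 in turn gave 6, 5, 6 and 0 downregulated genes, and without animal 23, where CCNE1 was not called either, 21 genes had an unadjusted p under 0.05. The shares of all genes in these 4 fits were 8.63%, 9.33%, 4.99% and 0.084%, so that few genes of any kind were called without animal 23.

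**Figure D4:**
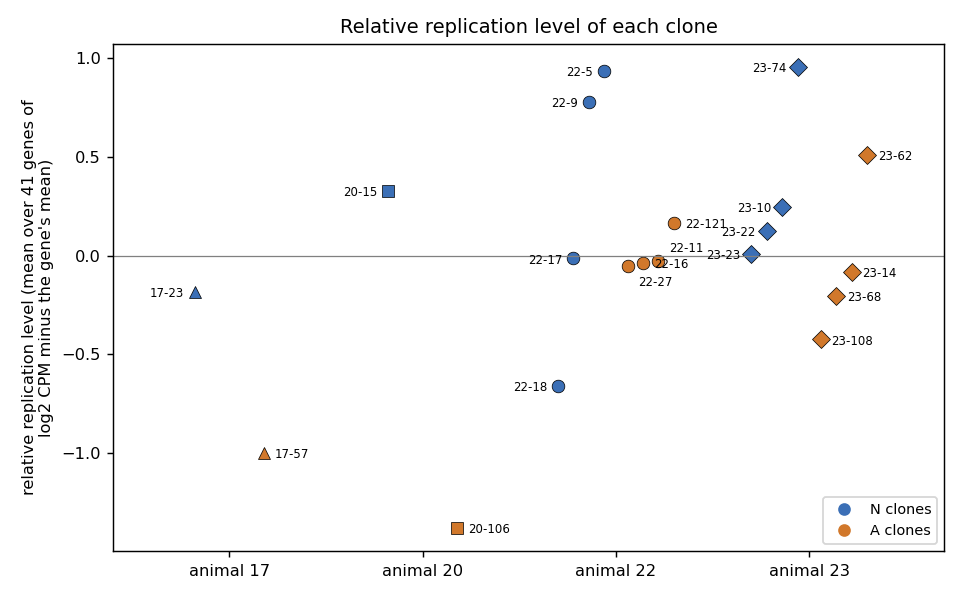
Relative replication level (y axis, log2) of each of the 20 clones by animal (x axis), with N clones in blue and A clones in orange. The A clones lie lower on average in each animal, but in animal 22 the 4 A clones, from -0.05 to 0.17, lie within the range of the 4 N clones, from -0.66 to 0.94, and above the mean of the N clones other than 22-5 and 22-9 (-0.34).

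The size of the difference was compared between animals 22 and 23, which had 4 clones of each kind. The interaction of condition and animal was called for 0 of the 41 genes by edgeR's quasi-likelihood test over the 16 clones, with 0 at an unadjusted p under 0.05 and 0 by DESeq2, beside 0.031% of all genes. The standard errors of these interactions were wide for single genes, for example 0.69 on the log2 scale for MCM5 and 0.65 for POLE, and narrower for POLA1, at 0.30. Between the animals themselves, 0 of the 41 genes were called by edgeR and 0 by DESeq2, beside 0.108% of all genes by edgeR. With either tool 1 gene, E2F2, had an unadjusted p under 0.05.

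Pearson's correlation of each gene with the mean of the other 40 over the 20 clones had a median of 0.866, and 20 genes were at 0.9 or above. MCM5 followed the rest most closely, with r = 0.991, and MCM4 (0.981), MCM2 (0.976), MCM3 (0.975) and TK1 (0.969) were near it. The clones share animals and conditions, so the correlation was also taken after centring within animal and condition over the 16 clones of animals 22 and 23, where the median was 0.917. After centring, 37 genes were at 0.6 or above and 4 were below: CCNE1 (0.146), POLA1 (0.160), ORC6 (0.264) and MCM6 (0.336). POLA1 had its highest N value, 51.9 CPM, in clone 22-18, where the relative replication level was the lowest of the N clones. MCM6 had its lowest N value, 49.97 CPM, in clone 22-5, where that level was the second highest. CCNE1 had r = -0.333 over the 20 clones, and A clone 20-106, lowest in relative replication level, had the second highest CCNE1 of all clones at 14.6 CPM.

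**Figure D5:**
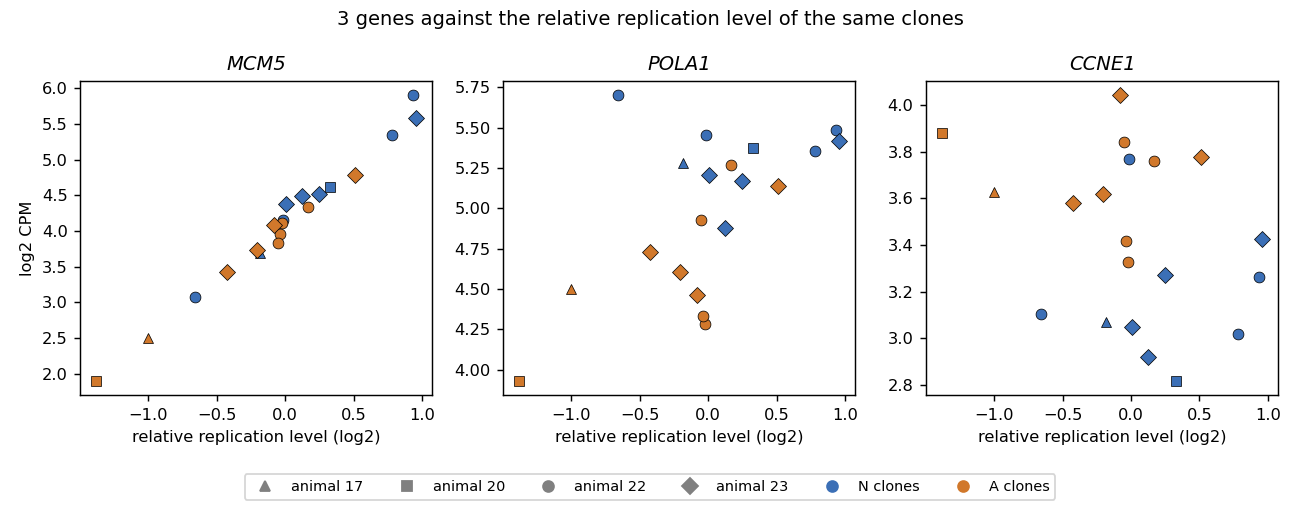
Log2 CPM (y axis) of MCM5, POLA1 and CCNE1 against the relative replication level of the same clone (x axis), which is a mean that includes these genes. MCM5 lies along a line in A and N clones alike (r = 0.991 with the other genes), while most N clones lie above A clones of the same level for POLA1 and below them for CCNE1.

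Other genes of the same machinery were read from lists outside the 41 genes, which were also chosen with earlier results of these data known. Of 46 further replication genes, 10 were downregulated in A clones (21.7%, beside 10.3% of all genes) and 36 were not called. Their median log2 fold change was -0.24. DNMT1, the maintenance methyltransferase that UHRF1 brings to DNA, averaged 55.4 ± 13.3 CPM over N and 35.8 ± 8.36 CPM over A clones (SD of 10 clones, log2 fold change -0.66, edgeR adjusted p = 0.0051). TIMELESS, a fork protection factor (-0.53, adjusted p = 0.0115), NASP, a histone chaperone (-0.59, adjusted p = 0.02), and MCMBP, which binds MCM subunits (-0.27, adjusted p = 0.0227), were also downregulated.

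Of 32 further G1/S control genes tested, 5 were downregulated and 4 upregulated in A clones, shares of 15.6% and 12.5% that are near the 10.3% of all genes in each direction. CCND2, cyclin D2, was 68.3 ± 29.9 CPM in A and 28.2 ± 17.2 CPM in N clones (SD, n = 10 each, log2 fold change 1.28, edgeR adjusted p = 0.013). MYC, a growth-promoting transcription factor, was also upregulated (0.60, adjusted p = 0.0232), as were CDK6, a partner of the D cyclins (0.65, adjusted p = 0.0405), and LIN54 (0.33, adjusted p = 0.0496). TFDP1, the partner of E2F proteins (-0.35, adjusted p = 0.0139), RBL2, a pocket protein that holds E2F targets silent (-0.34, adjusted p = 0.0177), CDKN2D, an inhibitor of the D cyclin kinases (-0.68, adjusted p = 0.0251), LIN9 (-0.59, adjusted p = 0.0352) and RB1, the retinoblastoma protein (-0.47, adjusted p = 0.0481), were downregulated. RB1 was lower in A clones in animals 22 and 23 but higher by 0.17 and 0.45 on the log2 scale in animals 17 and 20, and CDKN2D was higher by 0.52 in animal 17. CDKN1A, the p21 inhibitor of CDK2, stood at -0.06 (SE 0.26) and CDKN2A at 0.55 (SE 0.21, adjusted p = 0.0759), neither past the test.

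Of 35 mitosis genes, 24 were downregulated (68.6%, beside 10.3% of all genes). All 35 had negative log2 fold changes, and the median was -1.19. CDK1 (log2 fold change -1.37, adjusted p = 0.0069), AURKB (-0.76, adjusted p = 0.0087), KIF23 (-1.31, adjusted p = 0.0172) and KIF11 (-0.96, adjusted p = 0.0187) had the smallest adjusted p. Without N clones 22-5 and 22-9, 2 of the 35 mitosis genes (AURKB and CDK1) and 2 of the 46 further replication genes (TIMELESS and DNMT1) remained downregulated. Neither share was above the 5.91% of all genes downregulated in that fit. A relative mitosis level made in the same way followed the relative replication level over the 20 clones (Pearson's r = 0.911, Spearman's rho = 0.929) and within animal and condition over 16 clones (r = 0.874, rho = 0.682), as a description of clones that share libraries and depth. The mitosis level minus the replication level was 0.36 ± 0.22 in N clones and -0.36 ± 0.60 in A clones (SD, n = 10 each), from -0.12 to 0.64 and from -1.52 to 0.40. In the lowest A clone, 20-106, the mitosis level was -2.90 beside a replication level of -1.38.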

How the data were processed

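The deposited values are raw counts for each gene and clone. The authors removed adaptors with Trimmomatic 0.36, mapped reads with STAR 2.5.2b to the bovine assembly ARS-UCD1.2 and counted uniquely mapped exonic reads with Subread 1.5.2. The kit marks strand, but the strand setting of the count is not given in the sources used here. Genes that overlap another are therefore uncertain. In a RefSeq table of a later assembly, 16 of the 41 genes overlap another gene model. Among them are the downregulated genes POLA1, POLE, RRM1, POLE2, PRIM2, ORC1 and UHRF1, and the uncalled genes TYMS, CDT1, FEN1, RFC4 and CCNE2. CPM were not divided by gene length, so levels are compared between clones and never between genes. The 1 row without a name was left out. The number of columns from other samples was 0.

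From these counts edgeR 4.0.16 in R 4.3.3 was run over all genes (TMM, default filter on the condition, robust quasi-likelihood F test, Benjamini-Hochberg) and the animal given by the labels was a block. Within animals 17, 20, 22 and 23, A and N clones deviated from their group averages with correlations of 0.253, 0.193, 0.241 and 0.440. The prior count of log2 CPM was 2. The tests were checked on simulated counts. The 41 genes and all lists were chosen with earlier results of these data known. Values per clone are given for called genes. The other named genes are the 4 with the smallest adjusted p per further list, genes of the same roles, and the 5 most and 5 least like the relative replication level. CDK6, LIN54, RB1, LIN9, CDKN2D, CDKN1A, CDKN2A, POLE3, POLE4 and RFC1 were named after their values were seen. Promoter and protein sequences were not analysed here. Alternatives were DESeq2 1.42.0, limma-voom with limma 3.58.1, other normalizations and filters, no block, and left-out clones and animals.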

Additional observations from a re-analysis of the deposited data

Results flagged for a closer look

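The 41 genes and the relative replication and mitosis levels were examined, on the log2 scale, in each group of 10 clones for a lowest or highest clone that stood far from the rest. In 1 of 86 groups the gap was wider than the limit, where chance would give about 4.3. E2F1 was 3.43 CPM in N clone 17-23 against 8.25 CPM in the next lowest N clone, a gap of 0.547 of the log2 range of the N clones, past Dixon's critical value for 10 samples.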

How the results depend on the processing

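Of 1431 refits of single genes, 1211 kept their direction and their side of the threshold, 177 lost the call, 27 gained one and 16 reversed. No called gene reversed. Only the 14 genes called in the main fit could lose a call, and the 1211 are mostly refits of the 27 uncalled genes. The 1211 therefore do not measure how stable the calls were. The reversals in log2 fold change were TYMS 0.0601, PRIM1 0.0233, RFC2 0.0063, GINS1 0.0350, GINS3 0.0960 and ORC6 0.155 in animal 22 alone, GINS4 0.285, CHAF1B 0.0997 and ORC6 0.0064 in animal 23 alone, GINS3 0.0118 with limma-voom, ORC6 0.0568 without animal 20, and CCNE2 -0.191 without animal 22 and -0.0725 without animal 23. With single clones left out ORC6 ran from -0.23 to 0.0569 and CCNE2 from -0.0018 to 0.29. Without the animal block 8 of the 41 genes (19.5%) were downregulated, and with limma-voom 5 (12.2%), beside 8.83% and 9.89% of all genes. At least a 2-fold change left 5 downregulated and 0 upregulated. Leaving out animals 17, 20, 22 and 23 gave 6, 5, 6 and 0 downregulated genes, either animal alone 0, and leaving out N clones 22-5 and 22-9 gave 2. Without these N clones, an alternative chosen after seeing the data for this value, the relative replication level of A minus N in animal 22 turned from -0.25 to 0.35. CCNE1 was not called without animal 23 or in either animal alone. For further replication genes these counts were 4, 5, 1 and 0, then 0 and 0, then 2, with 1 upregulated without animal 20. For mitosis genes they were 13, 15, 2 and 0, then 0 and 0, then 2. For G1/S control genes downregulated, they were 0 without animal 22 or 23, 0 in animal 22 alone, 1 in animal 23 alone, 3 without N clones 22-5 and 22-9 and 2 without the block; upregulated, 2 without animal 17 or 20, 0 without animal 23 or in either animal alone, 2 without the N clones and 2 with no filter. Single clones left out gave 4 to 23 downregulated among the 41, 4 to 15 further replication genes (0 to 1 upregulated), 3 to 6 G1/S genes (2 to 5 upregulated) and 10 to 33 mitosis genes. The cause of these moves was not tested. Fits that leave out clones or animals also hold fewer clones. Low counts limit CDC6, ORC1, E2F2 and POLE2.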

Other observations

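The genes outside the 41 whose log2 CPM was most like the relative replication level, by Pearson's correlation within animal and condition over 16 clones, were CLSPN (0.979), FBXO5 (0.975), RBMX (0.967), NCAPH (0.966) and SMC2 (0.956). CLSPN encodes claspin of the replication checkpoint, NCAPH and SMC2 are condensin subunits and RBMX is an RNA-binding protein. RBMX, NCAPH and SMC2 were downregulated in A clones, with log2 fold changes of -0.35, -1.33 and -0.99 (edgeR adjusted p = 0.0173, 0.0431 and 0.0256), and CLSPN (-1.01) and FBXO5 (-0.67) were not called. Of the 50 genes most like the level, 7 were on the list of further replication genes, 3 on the mitosis list, 2 on the G1/S control list and 38 on none.

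The genes that ran most against it were HGSNAT (-0.924), SERPINB1 (-0.917), MARCH2 (-0.916), FAM208A (-0.915) and EXOC5 (-0.909). HGSNAT is a lysosomal acetyltransferase and EXOC5 a subunit of the exocyst. MARCH2 was upregulated in A clones (log2 fold change 0.59, edgeR adjusted p = 0.0128), and the other 4 were not called. All 5 had their highest N level in clone 22-18 and their lowest A level in clone 23-62.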
